A study of Mus musculus with 12 samples.

Results

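Long noncoding RNAs that stay in the nucleus, or that are made from imprinted loci, carry no protein to be translated, so their level in a ribosome preparation is a check on RNA that comes along without being translated. The genes were taken by name: Malat1, Neat1, Meg3, Miat, Snhg11, Rian, Mirg and Kcnq1ot1, 8 of the 41388 gene identifiers counted. They were followed through mouse cortex and hippocampus at postnatal day 21, in C57/Bl6 animals that carry RPL10a, a ribosomal protein, fused to eGFP and driven by Aldh1L1 sequences, which mark astrocytes. In TRAP (translating ribosome affinity purification) antibodies against eGFP collect the tagged ribosomes together with the RNA they hold. The 12 libraries fall into 4 groups of 3: the whole-tissue lysate before the pull-down (cortex input), its immunoprecipitate (cortex TRAP), a synaptoneurosome layer from a sucrose gradient before the pull-down (synaptoneurosome input), and what the antibodies collected from this layer (PAP TRAP, where PAP stands for peripheral astrocyte process). A synaptoneurosome is a resealed particle that holds a synapse with parts of the processes around it. All 4 groups share the transgene, the strain and the age, and the labels list cycloheximide (1 ug/mL), which holds ribosomes on their messages, and TTX (1 mM), a sodium channel blocker, for every sample. No group without the tag was among the samples used here, so the RNA that antibodies or beads collect without tagged ribosomes was not measured. The labels do not say whether libraries of a group came from separate animals, and p-values then measure the spread between these libraries, which may be technical.

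All libraries carry the label astrocytes, but the inputs are mixed tissue. Together, 15 astrocyte markers took 8.02% to 11.3% of nuclear-gene counts in cortex TRAP against 0.899% to 0.982% in its input, and 5.09% to 9.92% in PAP TRAP against 4.24% to 5.08% in its input. The 15 neuron markers took 0.237% to 0.349%, 2.17% to 2.43%, 0.689% to 1.03% and 1.41% to 1.90% in the same order, and none of the 30 markers was at 0 in any library. Gene counts per library lay between 4918113 and 17553985. Counts on nuclear genes lay between 1423296 and 7777763, lowest in the synaptoneurosome inputs, where mitochondrial genes took 83.8% to 91.9% of all gene counts. Their share was 44.8% to 50.2% in cortex input, 35.6% to 47.6% in PAP TRAP and 1.03% to 1.28% in cortex TRAP.

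Malat1 and Neat1 are neighbours on chromosome 19 that are kept in the nucleus. Malat1 collects in nuclear speckles, bodies rich in splicing factors, and Neat1 is the scaffold of paraspeckles. The 3′ ends of Malat1 and of the long form of Neat1 are cut without the usual poly(A) tail: U-rich runs pair with an A-rich tract downstream in a triple helix that protects the end. Miat, also called Gomafu, is a nuclear RNA known mainly from neurons, and its repeats of the splicing branch point word TACTAAC are bound by the splicing factor Sf1. Snhg11 is a small nucleolar RNA host gene known from neurons. Meg3, Rian and Mirg lie in a row in the imprinted Dlk1-Dio3 domain of chromosome 12, are expressed from the maternal allele, and carry snoRNAs and microRNAs inside their transcripts. Kcnq1ot1 is transcribed from the paternal allele, antisense within Kcnq1, and silences neighbouring genes in cis.

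Parts of the shared 3′ elements of Malat1 and Neat1 are shown because these elements are what sets the transcripts apart from polyadenylated messages. Each stretch of 30 bases is given 5′ to 3′ on the transcribed minus strand from GENCODE M21 (GRCm38), with the longest words common to both ends in capitals. The words in capitals of Malat1 lie in its only exon, of 6983 bases, upstream of the tRNA-like piece that is cut off the primary transcript. Those of Neat1 lie in its single-exon transcript of 20771 bases, and the A-rich tract is its last 30 bases.
Malat1 U-rich run, chr19:5796011-5796040: ttgttttCTCAGGTTTTGCTTTTtggcctt
Neat1 U-rich run, chr19:5824744-5824773: ggccgcgCTCAGGTTTTGCTTTTcaccttt
Malat1 A-rich tract, chr19:5795972-5796001: ttaaaaaaaAAAAAGCAAAAgacgctggtg
Neat1 A-rich tract, chr19:5824708-5824737: gagaacgaacgtgagcaggAAAAAGCAAAA
The 16-base word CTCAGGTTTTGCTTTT occurred, on the transcribed strand, in the longest transcript of 2 of 13374 lncRNA genes (0.015%), Malat1 and Neat1 themselves. The 11-base word AAAAAGCAAAA occurred in 67 (0.501%). The labels do not say how cDNA was primed, so how completely transcripts without a poly(A) tail were copied is not known.

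The repeats of Miat are shown because Miat was the only tested member called higher in PAP TRAP than in synaptoneurosome input. The stretch lies in the last of 7 exons of the Miat-205 transcript, at chr5:112216778-112216807 on the minus strand, with each TACTAAC in capitals.
Miat: tgtgcTACTAACccggcccTACTAACtggt
The 9163-base transcript held 6 copies of TACTAAC on the transcribed strand, the 93092-base Kcnq1ot1 held 4 and Neat1 held 1, while the longest transcripts of Malat1, Meg3, Snhg11, Rian and Mirg held 0. Of 699168 windows of 30 bases tiled over lncRNA transcripts, 517 held the word at least once (0.0739%) and 3 held it at least 2 times. A match of letters is a description and shows no binding.

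Mature miRNAs encoded inside the 3 Dlk1-Dio3 transcripts number 35 in RefSeq (GRCm38.p6), 3 within Meg3, 6 within Rian and 26 within Mirg, with 34 distinct seeds. The only seed shared by more than 1 was GGUUGCC, of miR-453 and miR-496a-5p. Of these, 4 are shown with the seed (bases 2 to 8) in capitals, because they are the small RNAs that these host transcripts are best known for and that the counts below do not measure.
miR-770-5p, within Meg3 at chr12:109563710-109563731, plus strand: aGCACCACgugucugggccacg
miR-370-3p, within Rian at chr12:109618305-109618326, plus strand: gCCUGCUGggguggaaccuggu
miR-134-5p, within Mirg at chr12:109734145-109734166, plus strand: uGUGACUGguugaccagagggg
miR-410-3p, within Mirg at chr12:109743764-109743784, plus strand: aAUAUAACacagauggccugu
The files list 50 small RNA genes that lie inside a member, 20 of them miRNA genes and 15 snoRNA genes. Of these, 3 had any count in the 12 libraries, 10 counts in all.

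In gene coordinates of GENCODE M21, matched by identifier, Malat1 (ENSMUSG00000092341) spans chr19:5795690-5802672 and Neat1 (ENSMUSG00000092274) chr19:5824708-5845478, both on the minus strand and 22035 bp apart. Meg3 (ENSMUSG00000021268) spans chr12:109541001-109571726, Rian (ENSMUSG00000097451) chr12:109603940-109661716 and Mirg (ENSMUSG00000097391) chr12:109729764-109749460, all on the plus strand. Miat (ENSMUSG00000097767) spans chr5:112213228-112229395 on the minus strand. Snhg11 (ENSMUSG00000044349) spans chr2:158375638-158386145 on the plus strand, and GENCODE types it as protein coding where RefSeq has a long noncoding RNA. Kcnq1ot1 (ENSMUSG00000101609) is a 93092-base single exon at chr7:143203458-143296549 on the minus strand. For the counts themselves, the build, annotation and strand setting were not given in the sources used here, and reads of a gene and of an antisense partner may not be separated. Of Miat's exon bases, 24.3% lie opposite another listed gene, and of Meg3's, 6.79%. Both opposite genes had 0 counts in all libraries, and Kcnq1, the host of Kcnq1ot1, had 1.

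Malat1 made up most of the members' counts everywhere, from 82.5% in a PAP TRAP library to 96.7% in a cortex input library. Total counts over the 12 libraries were 623297 for Malat1, 17818 for Snhg11, 3907 for Miat, 922 for Kcnq1ot1, 499 for Neat1, 219 for Meg3, 48 for Mirg and 32 for Rian. Rian and Mirg did not pass the filter on low counts and were not tested, so 6 of the 8 members were. Levels below are normalized CPM (CPM on library sizes scaled by TMM), and levels of different genes are compared only per kilobase of exon.

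In cortex input, Malat1 stood highest with 1708 ± 354 normalized CPM per kilobase (SD, n = 3), then Snhg11 with 39.2 ± 7.32 and Miat with 7.14 ± 0.913, and the ranges of these 3 did not overlap. The other 5 lay far lower: Neat1 at 0.256 ± 0.0207, Meg3 at 0.221 ± 0.0719, Mirg at 0.120 ± 0.0859, Kcnq1ot1 at 0.104 ± 0.0519 and Rian at 0.0225 ± 0.00584. Neat1 and Meg3 overlapped in this order, as did Meg3 with Mirg and Mirg with Kcnq1ot1. Which exons were counted could not be checked, so few counts for Meg3 need not mean a low level in cortex. The values of Kcnq1ot1 and Neat1 per kilobase rest on their annotated 93092 and 20771 bases, which the counted features or transcripts may not have. In PAP TRAP the order differed. Malat1 was again first at 31.6 ± 16.7 normalized CPM per kilobase, but Miat (1.495 ± 0.634) and Snhg11 (1.204 ± 0.0482) overlapped, followed by Neat1 (0.122 ± 0.0572) and Kcnq1ot1 (0.0780 ± 0.0349).

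**Figure D1:**
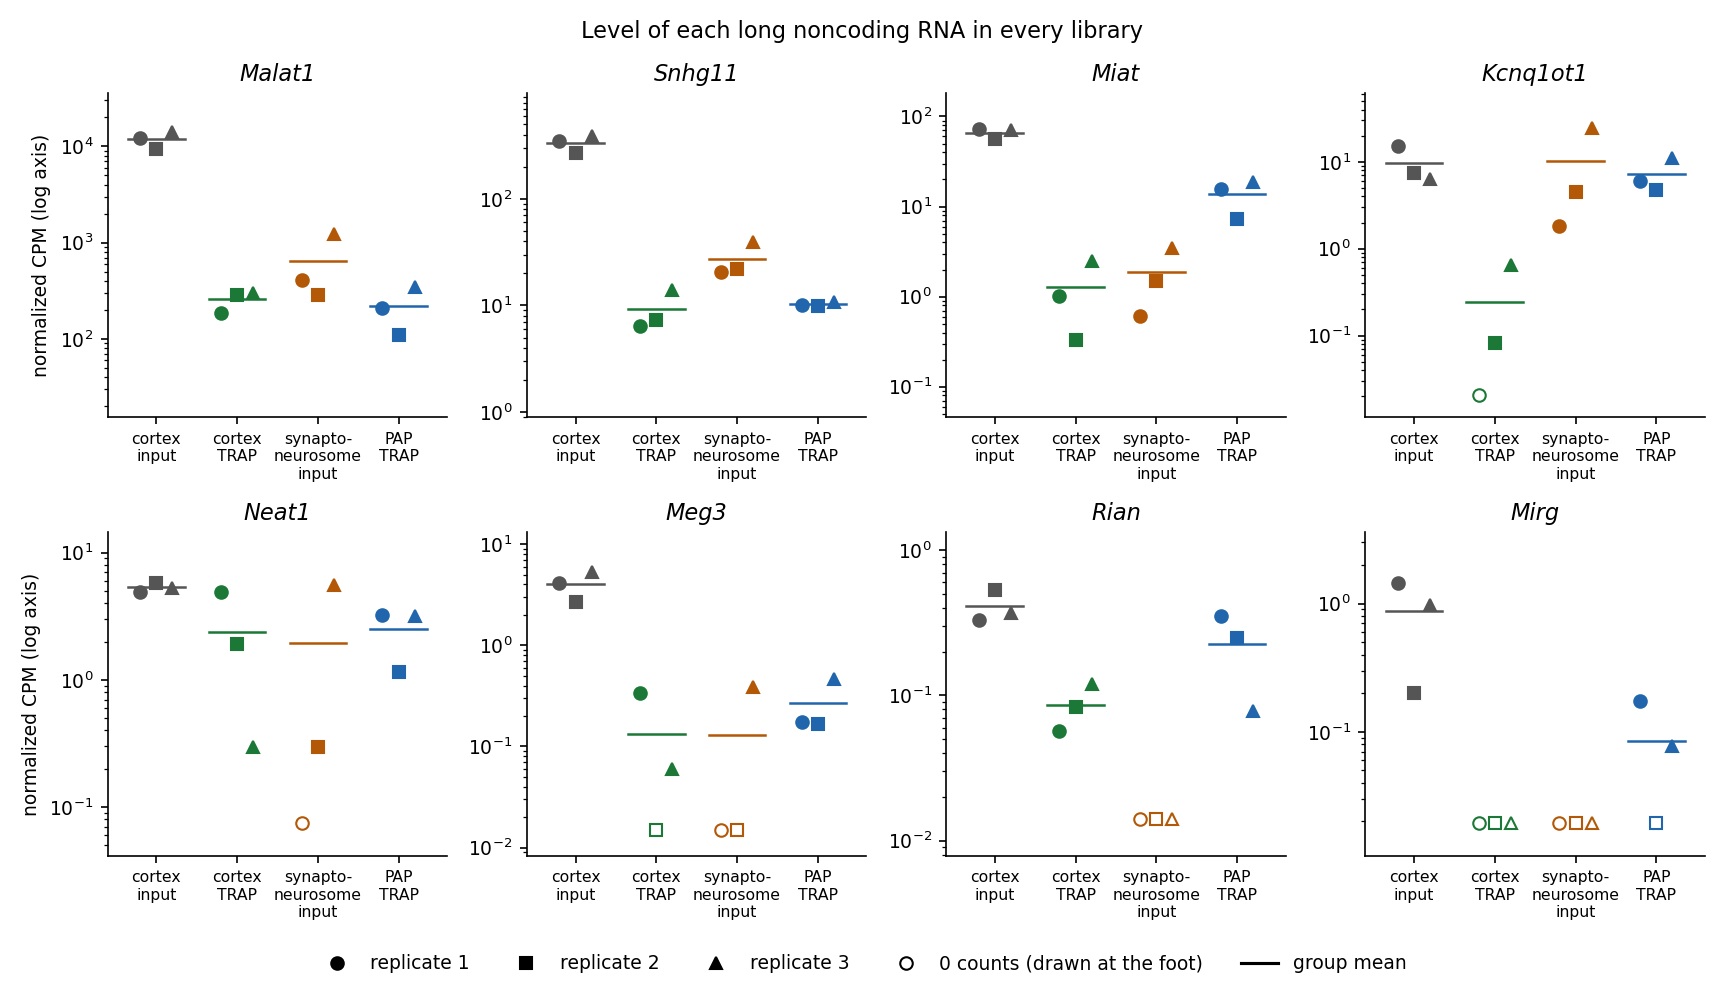
Normalized CPM (log axis, a separate scale per gene) of the 8 RNAs in the 12 libraries, with a symbol per replicate number, a bar for the group mean and open symbols for 0 counts. Cortex input is the highest group for Malat1, Snhg11, Miat and Meg3 in every library, while Kcnq1ot1 and Neat1 overlap it in the synaptoneurosome inputs.

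Cortex TRAP against cortex input asks how much of each untranslated RNA comes through the pull-down from whole tissue. Nearly all of Malat1, Snhg11 and Miat was lost relative to other genes: between 1.99% and 2.77% of the input level was left for each. Meg3 and Kcnq1ot1 fell by similar sizes from far fewer counts, and Neat1 did not pass the test. Of the 6 members tested, 5 were called lower and 0 higher (edgeR quasi-likelihood F test, Benjamini-Hochberg adjusted p under 0.05 over 13364 genes), where 19.5% of all genes tested were called lower and 15.9% higher. The median log2 fold change of the 6 was -5.19, against 0.05 for all genes tested. Meg3 passed the filter on low counts through cortex input alone, the group where it was highest. Its call and its part in the median are therefore not independent of the filter.

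Malat1 stood at 12314, 9286 and 14182 normalized CPM in the cortex inputs and at 184, 286 and 302 in the cortex TRAP libraries. The groups lay far apart, with the lowest input more than an order of magnitude above the highest TRAP library. The change was 46.3-fold lower (95% interval 21.9 to 98.2, adjusted p = 1.07e-07). As a share of nuclear-gene counts, Malat1 took 3.55%, 2.69% and 3.84% of the inputs and 0.0419%, 0.0710% and 0.0731% of the TRAP libraries.

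Snhg11 gave 347.6, 266 and 389 normalized CPM in cortex input and 6.45, 7.37 and 13.9 in cortex TRAP, again without overlap. It was 36.1-fold lower (21.0 to 61.9, adjusted p = 6.87e-09), the smallest p of the members. Miat gave 72.0, 56.6 and 70.6 in the inputs and 1.02, 0.331 and 2.51 in the TRAP libraries, from 18, 4 and 42 counts. Its log2 fold change was -5.65 ± 0.64 (SE, adjusted p = 1.14e-06), and -6.69 without cortex TRAP replicate 3.

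Kcnq1ot1 gave 15.3, 7.503 and 6.41 normalized CPM in cortex input, and 0, 1 and 11 counts in cortex TRAP, the last being 0.657 normalized CPM. Its log2 fold change was -5.21 ± 1.08 (adjusted p = 0.000823), and -7.86 without cortex TRAP replicate 3, the library with the 11 counts. Meg3 gave 74, 40 and 86 counts in the inputs and 6, 0 and 1 in cortex TRAP (4.09, 2.66 and 5.25 normalized CPM against 0.339, 0 and 0.0597), a log2 fold change of -4.75 ± 1.35 (adjusted p = 0.00927), and -6.62 without cortex TRAP replicate 1. With offsets corrected for transcript length, neither passed the test: Meg3 was at -3.33 (adjusted p = 0.0548) and Kcnq1ot1 at -2.46 (adjusted p = 0.0694). The length-corrected value of Kcnq1ot1 rests on an annotated length of 93092 bases, the longest of the members.

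Neat1 differed from the other tested members in how uneven it was. It gave 89, 87 and 86 counts in the cortex inputs (4.92, 5.78 and 5.25 normalized CPM), and 87, 23 and 5 in the cortex TRAP libraries (4.92, 1.905 and 0.298). TRAP replicate 1 thus stood at the level of the lowest input, and replicate 3 far below. The log2 fold change of -1.16 ± 1.08 did not pass the test (adjusted p = 0.441), with a 95% interval from -3.43 to 1.11, and was -2.42 without cortex TRAP replicate 1. Its direction turned to 0.63 with length-corrected offsets.

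Rian gave 6, 8 and 6 counts in the cortex inputs and 1, 1 and 2 in cortex TRAP. Mirg gave 26, 3 and 16 counts in the inputs and 0 in all 3 cortex TRAP libraries, so it was at least 14.1-fold higher in cortex input, taking 3 counts over the whole TRAP group as the limit that 0 allows. All 8 members, the 6 tested ones among them, were lower in every cortex TRAP library than in every cortex input library, and so were 27.8% of all genes tested. For Neat1 this rested on 4.922 against 4.923 normalized CPM.

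**Figure D2:**
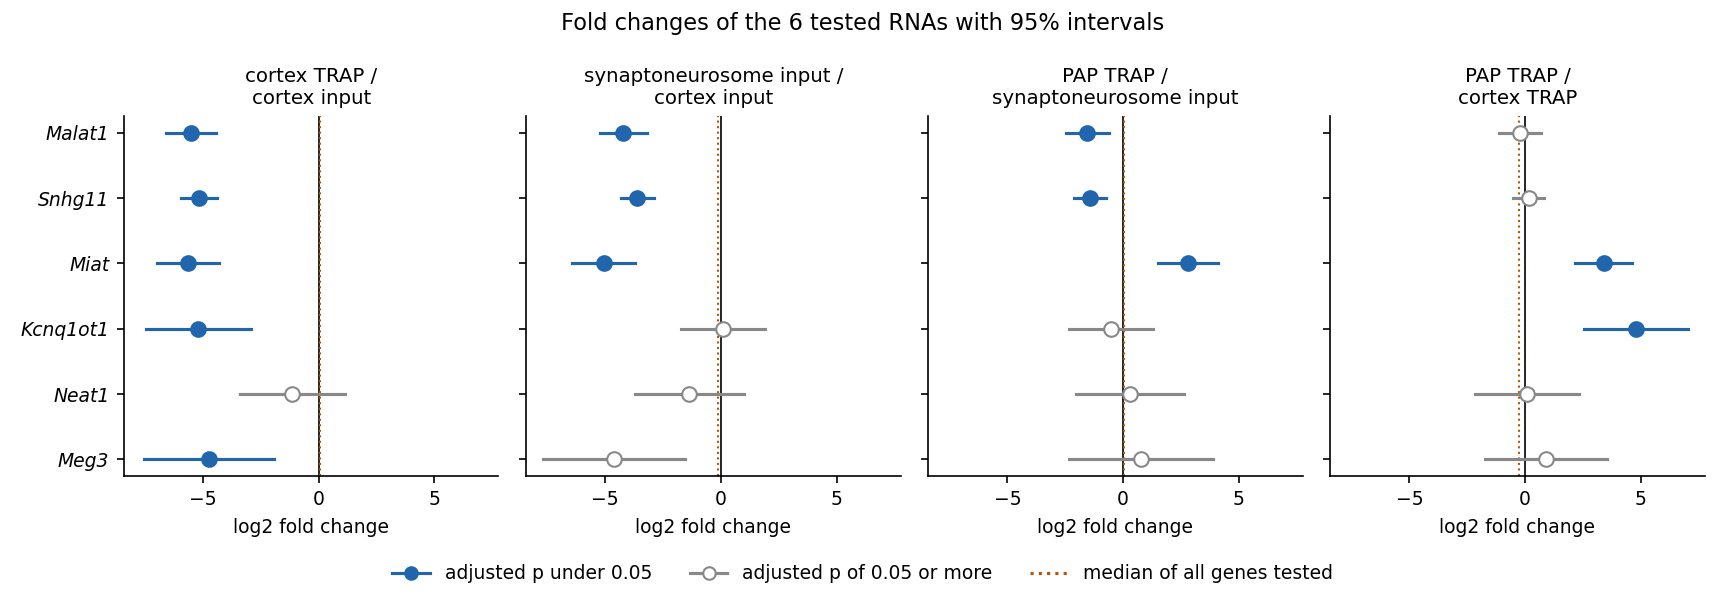
Log2 fold changes (horizontal axis, points) with 95% intervals (lines) of the 6 tested RNAs in 4 comparisons, filled where the adjusted p is under 0.05, with a dotted line at the median of all genes. In cortex TRAP against cortex input 5 filled points lie between -5.65 and -4.75. Miat lies to the right of 0 and is filled in both PAP TRAP panels, joined by Kcnq1ot1 in that against cortex TRAP.

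Cell-type markers moved in the same comparison, and their part in the members' fall was not tested. All 15 neuron markers fell in cortex TRAP (median log2 fold change -3.19, range -4.84 to -1.84), 9 of 11 tested oligodendrocyte markers fell (median -2.29), 6 of 12 microglia markers fell (median -1.92), and all 15 astrocyte markers rose (median 4.11). All 11 tested mitochondrially encoded mRNAs fell as well (median -5.94). Malat1, Snhg11, Miat and Kcnq1ot1 lay below the lowest of the neuron markers. In bulk samples such as these, fewer cells of a type and less RNA per cell cannot be told apart.

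Other untranslated RNAs did not all move with the members. Of 44 other long noncoding RNAs listed, 21 passed the filter, of which 7 fell and 2 rose (median -1.002). Among those that fell, B830012L14Rik (-7.94) passed the filter through cortex input alone, so the count of falls is not independent of the filter. Snhg14, an imprinted transcript that keeps the paternal Ube3a silent in neurons, had a log2 fold change of -2.96 ± 0.29 (adjusted p = 1.92e-07), and Pantr1 rose by 3.28 ± 0.38 (adjusted p = 1.33e-06). Of 10 tested snoRNA host genes, the class that Snhg11 is named for, 2 rose and 0 fell. Among all genes tested 15.9% were called higher, a share near this, and 19.5% lower. Gas5, whose spliced RNA is known to sit on ribosomes, rose by 0.78 ± 0.28 (adjusted p = 0.0363), and Snhg18 by 5.85 ± 1.40 (adjusted p = 0.00269). Rn7sk, the small nuclear RNA that holds back transcription elongation, gave 177, 75 and 92 counts in the cortex inputs and 3, 2 and 1 in cortex TRAP (log2 fold change -5.60 ± 1.15, adjusted p = 0.000972). Like Meg3, Rn7sk passed the filter on low counts through cortex input alone, so its call is not independent of the filter.

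Messages for the proteins of the same nuclear bodies were called lower about as often as the 19.5% of all genes tested. Of 18 paraspeckle protein messages, 3 fell and 0 rose (median -0.12), among them Pspc1, a core paraspeckle protein, by 1.62 on the log2 scale (SE 0.53, adjusted p = 0.0226). Of 17 tested messages of nuclear speckle and splicing proteins, 3 fell and 0 rose (median -0.11), led by Son, a speckle scaffold, at -1.03 ± 0.28 (adjusted p = 0.00712). Of 26 tested imprinted protein-coding genes, 10 fell and 0 rose (median -0.90), for example Mest, a hydrolase-like protein, at -2.72 ± 0.27 (adjusted p = 2.36e-07). Dlk1, the imprinted coding partner of Meg3, had 0 counts in all libraries.

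**Figure D3:**
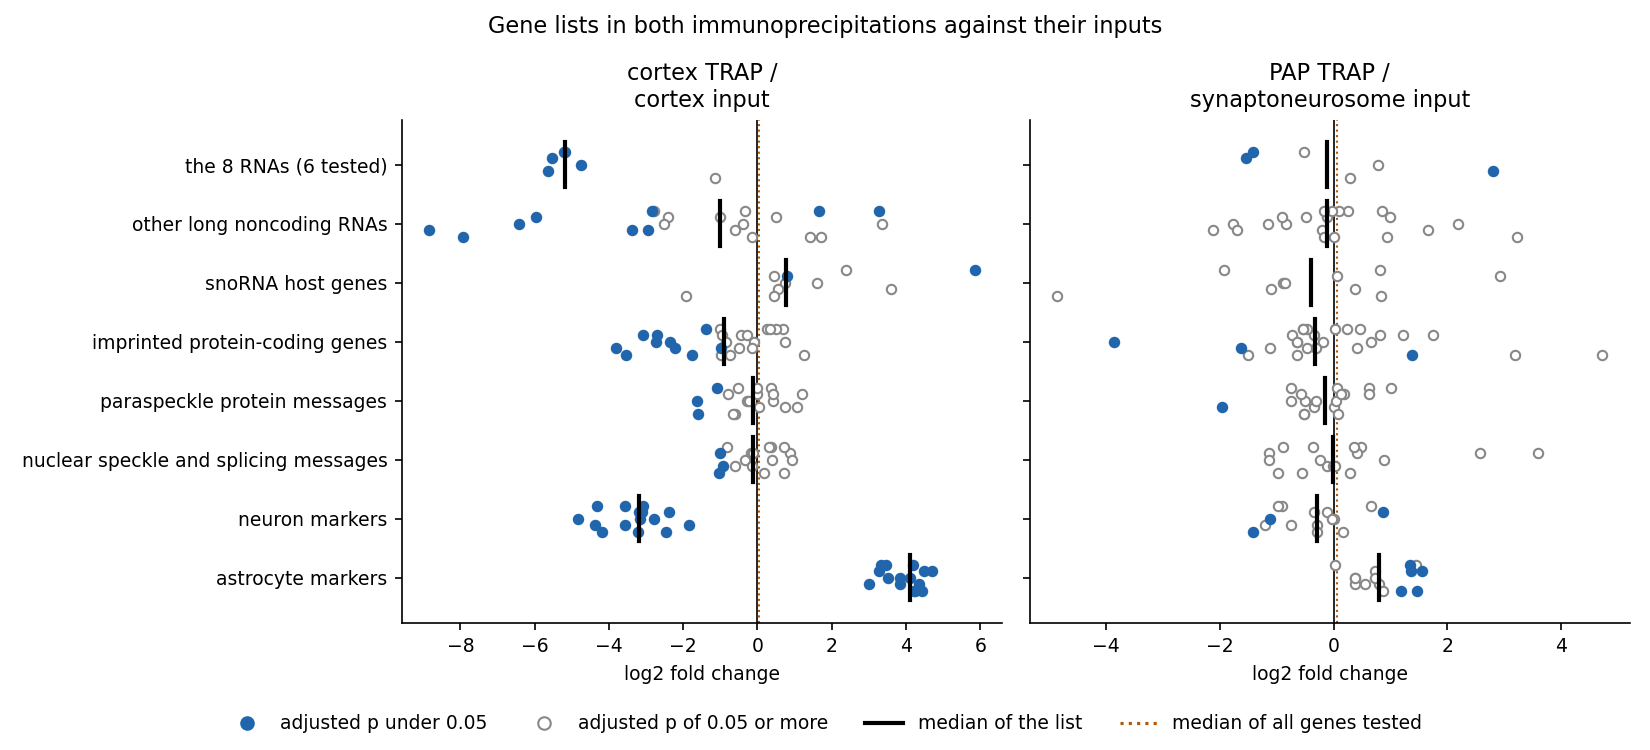
Log2 fold changes (horizontal axis) of every tested gene of 8 lists (points, filled where the adjusted p is under 0.05) with the median of each list (black bar), for cortex TRAP against cortex input and PAP TRAP against synaptoneurosome input, on separate scales. On the left the median of the 6 tested members of the 8 RNAs, -5.19, lies below those of the other lists drawn, and on the right it is -0.11.

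Synaptoneurosome input against cortex input shows what fractionation did before any antibody was used. Malat1, Snhg11 and Miat fell in the fraction to between 2.98% and 8.20% of the cortex level. Kcnq1ot1 and Neat1 did not pass the test and were uneven between libraries, and Meg3 fell just short of the threshold. Of the 6 members tested, 3 were called lower and 0 higher, where 2.07% of all genes were called lower and 7.26% higher. In normalized CPM, 4 of the 6 tested members (all but Neat1 and Kcnq1ot1) lay lower in every synaptoneurosome input than in every cortex input, as did 20.1% of all genes tested. Rian and Mirg, not tested, were at 0 counts in the fraction. The members' median was -3.91, against -0.14 for all genes. Meg3 passed the filter on low counts through cortex input alone, so its lower place here and its part in the median are not independent of the filter.

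Malat1 gave 410, 289 and 1227 normalized CPM in the 3 synaptoneurosome inputs, all below the cortex inputs. It was 18.6-fold lower (95% interval 9.17 to 37.6, adjusted p = 1.78e-05). Replicate 3 stood apart: of the 6 members with any count in this group, each was highest there, and without it the log2 fold change of Malat1 was -5.09, against -4.22 with it. Snhg11 gave 20.6, 21.8 and 39.3 normalized CPM and was 12.2-fold lower (7.36 to 20.2, adjusted p = 2.24e-06).

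Miat gave 2, 5 and 18 counts in the synaptoneurosome inputs (0.606, 1.49 and 3.47 normalized CPM), a log2 fold change of -5.07 ± 0.65 (adjusted p = 5.68e-05), and -5.96 without replicate 3. Meg3 gave 0, 0 and 2 counts, and its fitted change of -4.62 ± 1.47 depends on how the fit treats counts near 0 (adjusted p = 0.0546). It passed with nuclear totals without TMM (adjusted p = 0.0355), in a fit of the compared groups alone (0.0107) and with length-corrected offsets (0.0348). None of these calls is independent of the filter, which Meg3 passed through cortex input alone. Rian and Mirg were at 0 counts in all 3 libraries, so they were at least 1.59-fold and 3.59-fold higher in cortex input, bounds kept low by the shallow nuclear depth of the fraction.

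Kcnq1ot1, unlike Malat1, was not called lower in the fraction. It gave 6, 15 and 127 counts in the synaptoneurosome inputs, or 1.82, 4.47 and 24.5 normalized CPM, a range that encloses all 3 cortex inputs. The log2 fold change was 0.10 ± 0.87 (adjusted p = 0.958), with a 95% interval from -1.72 to 1.92, and without replicate 3 it was -1.62 (adjusted p = 0.352). Neat1 gave 0, 1 and 29 counts, a log2 fold change of -1.36 (adjusted p = 0.487), and -5.05 without replicate 3 (adjusted p = 0.0558). For both genes, then, replicate 3 sets the value of the group.

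Malat1, Snhg11 and Miat lay below the lowest of the 15 neuron markers in this comparison, of which 2 rose and 2 fell (median -0.26, range -0.998 to 1.49), while Kcnq1ot1 lay inside their range. Markers of other cells moved too: 12 of 15 astrocyte markers rose (median 1.68), as did 8 of 12 microglia markers (median 2.68), 2 of 11 oligodendrocyte markers (median 0.62) and all 11 mitochondrially encoded mRNAs (median 3.85), and 0 of these fell. Their part in the members' values was not tested. Of 21 other long noncoding RNAs tested, 3 fell and 1 rose (median -1.501). Among those that fell was B830012L14Rik, which passed the filter through cortex input alone. Of the splicing and speckle messages 1 of 17 fell and 0 rose (median -0.80), and of the paraspeckle messages 1 of 18 fell and 0 rose (median -0.41).

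PAP TRAP against synaptoneurosome input asks what the pull-down did within the fraction. Miat rose 7.02-fold, Malat1 and Snhg11 fell to 34.4% and 37.5% of the fraction, and Neat1, Meg3 and Kcnq1ot1 did not pass the test. Of the 6 tested members, 1 was called higher and 2 lower, where 3.02% and 1.52% of all genes were called higher and lower. The median of the 6 was -0.11, against 0.06 for all genes. All 3 calls were lost under some of the alternatives.

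Miat gave 181, 88 and 239 counts in PAP TRAP (15.9, 7.26 and 18.5 normalized CPM), against 2, 5 and 18 in its input. Each PAP TRAP library stood above each input library in normalized CPM, which held for 2 of the 8 members (Rian, with 0 counts in its input, was the other) and for 12.2% of all genes tested. The change was 7.02-fold higher (95% interval 2.85 to 17.3, adjusted p = 0.0140). The call was lost without synaptoneurosome input replicate 1 (log2 2.44, adjusted p = 0.0677) or replicate 2 (2.67, adjusted p = 0.0654), and the value rose to 3.73 without replicate 3.

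Malat1 gave 208, 111 and 343 normalized CPM in PAP TRAP and overlapped its input on this scale. As a share of nuclear-gene counts it did not overlap, at 0.0425%, 0.0223% and 0.0651% in PAP TRAP against 0.0945%, 0.0680% and 0.257% in its input. Its log2 fold change of -1.54 ± 0.44 lay at the threshold (adjusted p = 0.04997). It was -0.65 without synaptoneurosome input replicate 3 (adjusted p = 0.3797), and the call was also lost without synaptoneurosome input replicate 1, PAP TRAP replicate 1 or replicate 2, without mitochondrial genes and with GC-corrected offsets, where the adjusted p lay between 0.0567 and 0.168. Snhg11 gave 10.2, 9.91 and 10.7 normalized CPM in PAP TRAP, close together and below all 3 inputs, as were 9.38% of all genes tested and, in normalized CPM, none of the other members. Its log2 fold change was -1.42 ± 0.33 (adjusted p = 0.0190), and the call was lost in a fit of the compared groups alone (adjusted p = 0.0723), without synaptoneurosome input replicate 3 (-1.03, adjusted p = 0.118) and without PAP TRAP replicate 1, 2 or 3 (adjusted p 0.0507 to 0.0608).

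Kcnq1ot1 gave 69, 58 and 141 counts in PAP TRAP (6.05, 4.79 and 10.9 normalized CPM), inside the range of its input. Its log2 fold change of -0.52 (95% interval -2.35 to 1.31, adjusted p = 0.805) turned to 1.22 without synaptoneurosome input replicate 3. Neat1 gave 37, 14 and 41 counts (3.24, 1.16 and 3.18 normalized CPM), a change of 0.29 (adjusted p = 0.924) that was 4.01 without synaptoneurosome input replicate 3 (adjusted p = 0.194). Meg3 gave 2, 2 and 6 counts, Rian 4, 3 and 1, and Mirg 2, 0 and 1. At such depths neither a rise nor a fall of these 3 was detectable.

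Markers of several cell types also passed the test here: 5 of 15 astrocyte markers rose and 0 fell (median 0.79), and 1 of 15 neuron markers rose and 2 fell (median -0.30). No oligodendrocyte, microglia or mitochondrial gene listed rose, while 3 of 11 oligodendrocyte markers (median 0.01), 2 of 12 microglia markers (median -1.68) and 8 of 11 mitochondrially encoded mRNAs (median -2.58) fell. Their part in the members' values was not tested. Of the 21 other long noncoding RNAs tested, 0 passed the edgeR test in either direction (2 at an unadjusted p under 0.05, and 1 by DESeq2, which was lower). Rn7sk had 6, 1 and 3 counts in the synaptoneurosome inputs and 0 in all PAP TRAP libraries. Its fitted change depends on the treatment of 0 counts and is not given as a fold.

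PAP TRAP against cortex TRAP sets the pull-down from the fraction beside that from whole tissue. Miat was 10.5-fold higher in PAP TRAP, Kcnq1ot1 was higher by 4.79 ± 1.07 on the log2 scale, and the other 4 tested members did not pass the test. Of the 6 members, 2 were called higher and 0 lower, where 19.3% and 14.6% of all genes were called higher and lower. The median of the 6 was 0.53, against -0.28 for all genes.

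For Miat the groups did not overlap, at 7.26 to 18.5 normalized CPM in PAP TRAP and 0.331 to 2.51 in cortex TRAP (95% interval of the fold 4.46 to 24.8, adjusted p = 0.000188). The log2 change was 3.39 ± 0.59, 4.43 without cortex TRAP replicate 3, and 1.96 with length-corrected offsets (adjusted p = 0.0125). Kcnq1ot1 did not overlap either, at 4.79 to 10.9 against 0 to 0.657 (adjusted p = 0.00193). Its change was 7.43 without cortex TRAP replicate 3, and 1.33 with length-corrected offsets, where it no longer passed (adjusted p = 0.342). By normalized CPM, 22.2% of all genes tested were higher in every PAP TRAP library than in every cortex TRAP library.

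Malat1 stood at almost the same level in both immunoprecipitates, with a log2 fold change of -0.22 (95% interval -1.12 to 0.67, adjusted p = 0.716). Its sign turned to 0.05 without cortex TRAP replicate 3 and to 0.10 without PAP TRAP replicate 2, and with length-corrected offsets it was called lower (-1.23, adjusted p = 0.0346). Snhg11 differed by 0.15 (95% interval -0.52 to 0.82, adjusted p = 0.749), a sign that turned under nuclear totals without TMM and under length correction. Neat1 (0.09, 95% interval -2.18 to 2.35) and Meg3 (0.91, 95% interval -1.73 to 3.54) had intervals wide enough to hold large changes either way. Markers of several cell types other than astrocytes were higher in PAP TRAP: 14 of 15 neuron markers rose (median 2.79), 8 of 11 oligodendrocyte markers (median 2.81), 4 of 5 oligodendrocyte precursor markers (median 3.34), 7 of 12 microglia markers (median 2.86) and 4 of 7 endothelial and mural markers (median 3.93, with 1 lower). Of 15 astrocyte markers 13 fell (median -1.34). All 11 mitochondrially encoded mRNAs rose (median 7.52). The part of these shifts in the rise of Miat and Kcnq1ot1 was not tested. In a fit without the mitochondrial genes, Miat stood at 3.54 (adjusted p = 0.000113) and Kcnq1ot1 at 4.93 (adjusted p = 0.00139).

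Levels can also be read within each library, free of scaling between libraries, as reads per 1000 Malat1 reads. Such a ratio also rises where Malat1 falls, and Malat1 was lower in each other group than in cortex input. These ratios were chosen after the values had been seen and carry no test. Miat gave 76.2, 65.6 and 54.1 per 1000 in PAP TRAP against 1.48, 5.17 and 2.83 in its input, and 5.53, 1.16 and 8.31 in cortex TRAP against 5.84, 6.10 and 4.98 in its input. All 3 PAP TRAP libraries thus stood above all 9 others. Kcnq1ot1 gave 29.0, 43.2 and 31.9 in PAP TRAP against 4.44, 15.5 and 19.96 in its input, and 0, 0.289 and 2.18 in cortex TRAP against 1.24, 0.808 and 0.452 in its input, and its PAP TRAP libraries also stood above the 9 others. In normalized CPM this order did not hold. Kcnq1ot1 in PAP TRAP overlapped both inputs, and Miat lay below cortex input (mean 13.9 against 66.4). Snhg11 stayed within a narrower span, between 25.8 and 89.4 per 1000 over all 12 libraries.

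**Figure D4:**
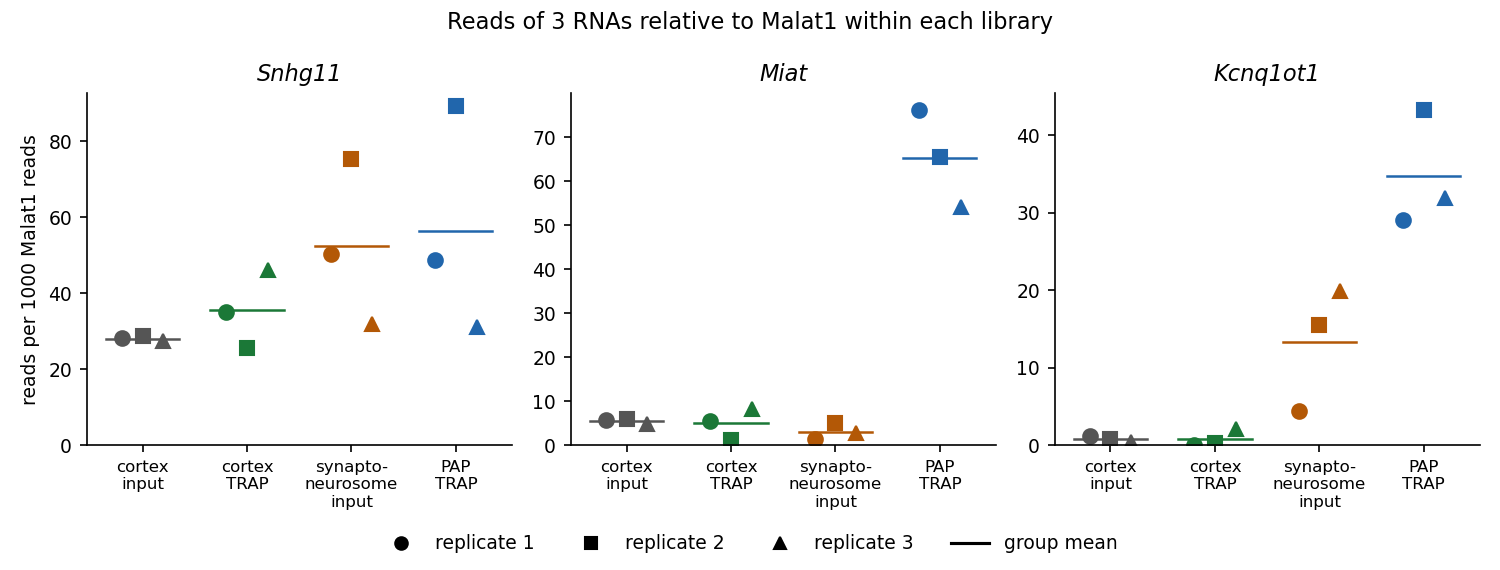
Reads of Snhg11, Miat and Kcnq1ot1 per 1000 Malat1 reads (vertical axis, from 0) in each library, with a bar for the group mean. Miat sits between 54.1 and 76.2 in PAP TRAP and at or under 8.31 elsewhere, and Kcnq1ot1 is also highest in PAP TRAP.

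The test of the difference between both enrichments over input asks whether the change over input was alike in whole tissue and in the fraction. It cannot tell a difference between the immunoprecipitates from one between the inputs. For Malat1 and Snhg11 the immunoprecipitates differed by -0.22 and 0.15 on the log2 scale, and the inputs by -4.22 and -3.61. Of the 6 members, 4 were called, all with a value over input that was higher in the fraction than in whole tissue, where 12.9% of all genes were called in that direction and 7.31% in the other. Miat differed by 8.46 ± 0.88 on the log2 scale (adjusted p = 2.08e-06), Kcnq1ot1 by 4.69 ± 1.35 (adjusted p = 0.0180), Malat1 by 3.99 ± 0.63 (adjusted p = 0.000135) and Snhg11 by 3.76 ± 0.46 (adjusted p = 1.18e-05). With length-corrected offsets Kcnq1ot1 was at 1.82 and no longer passed (adjusted p = 0.397). Meg3 fell short at 5.53 ± 1.95 (adjusted p = 0.0517), and passed without cortex TRAP replicate 1 (adjusted p = 0.0210) or synaptoneurosome input replicate 3 (adjusted p = 0.0315). These values are not independent of the filter, which Meg3 passed through cortex input alone. Neat1 was at 1.45 (adjusted p = 0.573). Neuron markers moved the same way in 14 of 15 cases (median 3.17), oligodendrocyte markers in 7 of 11 (median 1.94) and mitochondrially encoded mRNAs in 8 of 11 (median 3.53), while astrocyte markers moved the opposite way in 15 of 15 (median -3.13), and their part in the members' values was not tested.

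Reads that HTSeq assigned to no feature can include introns and unannotated transcripts. How many of these reads came from untranslated RNA was not tested. As a share of nuclear-gene plus no-feature reads they were 10.7%, 19.4% and 11.005% in cortex TRAP against 26.5%, 23.1% and 27.0% in its input, and 16.1%, 27.9% and 17.2% in PAP TRAP against 15.6%, 16.1% and 18.2% in its input. Cortex input was thus above cortex TRAP in every library, as for Malat1, but by a far smaller factor. In both immunoprecipitates replicate 2 stood above its partners, and PAP TRAP replicate 2, with the largest share of all 12 libraries, had the lowest Malat1 share, 0.0223% of nuclear-gene counts against 0.0425% and 0.0651%.

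**Figure D5:**
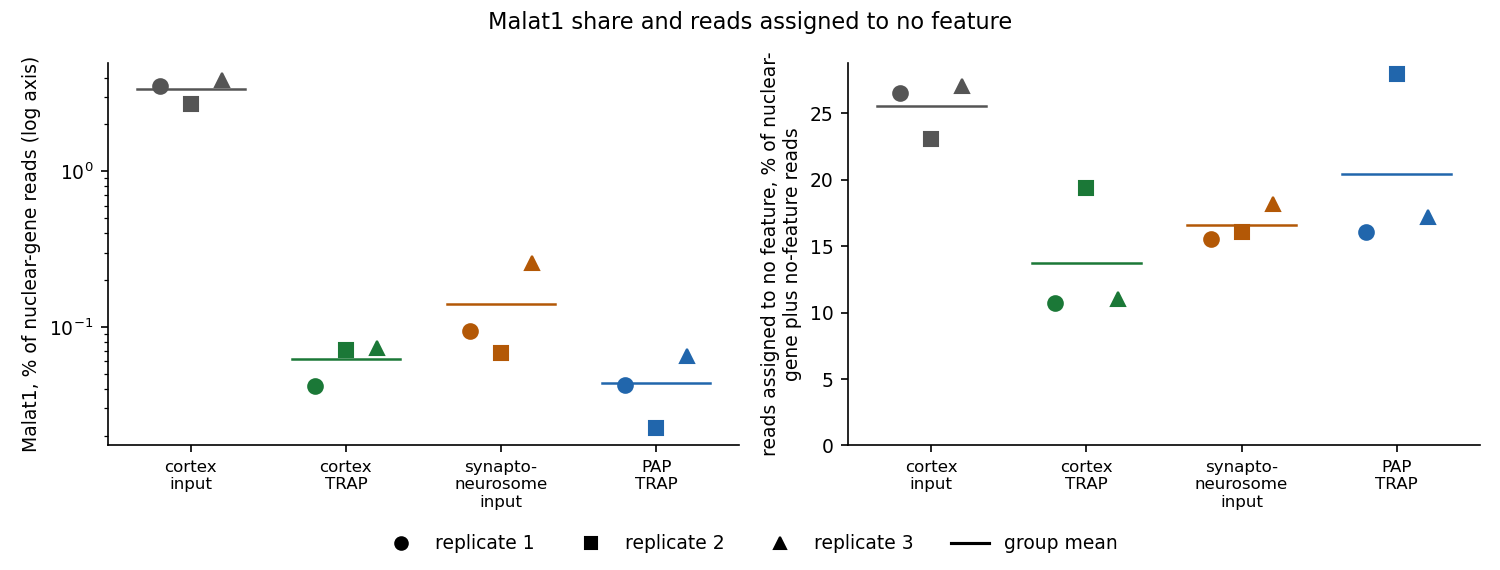
Left, Malat1 as a percentage of nuclear-gene reads (log axis). Right, reads assigned to no feature as a percentage of nuclear-gene plus no-feature reads (from 0), each by library with a bar for the group mean. Malat1 is highest in the 3 cortex inputs by over an order of magnitude, whereas PAP TRAP replicate 2, at 27.9%, reaches the level of the cortex inputs on the right.

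Of 13 tested genes next to the members, 2 fell and 0 rose in cortex TRAP against its input (median -0.14), a share near the 19.5% called lower among all genes. In PAP TRAP against cortex TRAP 3 of the 13 rose and 1 fell (median 0.06), in PAP TRAP against its input and in synaptoneurosome input against cortex input 1 rose and 0 fell, and in the difference between both enrichments 2 were higher and 0 lower. Ppp1r16b, a phosphatase subunit beside Snhg11, fell by 2.17 on the log2 scale in cortex TRAP (SE 0.25, adjusted p = 1.51e-06) but rose in PAP TRAP against its input by 1.79 ± 0.25 (adjusted p = 0.000586), opposite to Snhg11. Begain, a synaptic protein gene beside the Dlk1-Dio3 domain, was higher by 3.27 ± 0.70 in PAP TRAP than in cortex TRAP (adjusted p = 0.00134).

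Across the 12 libraries the members' log2 levels were alike to different degrees, which is a description over libraries that share 4 groups. Malat1 and Snhg11 had a Pearson correlation of 0.978, Malat1 and Meg3 0.929, Malat1 and Miat 0.741, Malat1 and Neat1 0.532 and Malat1 and Kcnq1ot1 0.5004. Among the 6694 genes whose mean log2 CPM reached 3, the closest to Malat1 was Atp6v1c1, a subunit of the vacuolar proton pump (0.962). The closest to Snhg11 was Tpm1, a tropomyosin (0.979), to Miat Cdyl2 (0.939), to Meg3 Zcchc7 (0.934), to Kcnq1ot1 Got2, a mitochondrial aminotransferase (0.959), and to Neat1 Trappc12 (0.886). Mir124a-1hg, the host transcript of a neuronal miRNA, was among the 3 closest to Meg3 (0.925). It stood at 48.4 normalized CPM in cortex input against 0.530 in cortex TRAP, and at 3.19 in synaptoneurosome input against 1.47 in PAP TRAP.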

How the data were processed

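The deposited files hold whole-number counts of reads per gene, not normalized by the authors, judged from the values. The submitters' processing notes name HTSeq, STAR, Bowtie2 and Trimmomatic 0.32 and give them no role. Per the labels' protocols, cDNA from 2 ng of RNA was amplified by SPIA, a linear method, and 500 ng of it, in fragments near 200 bp, went into each library. Amplified reads without molecular identifiers are not independent molecules, so floors of 3 counts cover counting error only. Rows naming no gene held 20.3% to 55.5% of each library and were removed before scaling and testing. Of 41388 identifiers, 40254 had a symbol and place in GENCODE M21. After filterByExpr (minimum count 10, minimum total 15) 13364 genes remained. One model over all 12 libraries, with TMM factors of 0.191 to 2.46, gave quasi-likelihood F tests (edgeR 4.0.16 in R 4.3.3), and p-values were Benjamini-Hochberg adjusted over all genes tested and called at 0.05. Fold changes are log2 ± SE or folds with 95% intervals, from 3 libraries per group. No libraries of a group were alike within counting noise (chi-square per gene 9.06 to 91.9). The script was tested on simulated data. The genes named are all 8 members, up to 2 rising and 2 falling genes per list by smallest p, the 3 genes most like each member (log2 of CPM + 0.5) and neighbours of the members. Members and lists were chosen with earlier results of these data known. Alternatives were RLE scaling, no mitochondrial genes, nuclear totals without TMM, no filter, DESeq2 1.42.0, a fit of only the groups compared, a replicate block, offsets with a loess correction (span 0.3) for transcript length or for GC content, and each library left out.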

Additional observations from a re-analysis of the deposited data

Results flagged for a closer look

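For 4 RNAs the immunoprecipitation from whole tissue and that from the synaptoneurosome fraction gave different changes over input, by the test of the difference itself (edgeR quasi-likelihood F test, interaction term). Miat differed by 8.46 on the log2 scale: it was 50.2-fold lower than its input in whole tissue and 7.02-fold higher in the fraction. Kcnq1ot1 differed by 4.69, with a log2 change of -5.21 in whole tissue and of -0.52 in the fraction. Malat1 differed by 3.99, with changes of -5.53 and -1.54, and Snhg11 by 3.76, with changes of -5.17 and -1.42. For Malat1 and Snhg11 PAP TRAP stood near cortex TRAP (-0.22 and 0.15), while synaptoneurosome input lay below cortex input (-4.22 and -3.61).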

How the results depend on the processing

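Of 478 values of single members under the alternatives, 429 kept their direction and side of the threshold, 17 lost the call, 10 gained it and 22 changed sign. Members called in cortex TRAP against cortex input numbered 5, and 3 with length-corrected offsets. Members called in PAP TRAP against synaptoneurosome input numbered 3, and 1 to 2 with a library left out. Genes called in synaptoneurosome input against cortex input numbered 1246, 2035 by DESeq2, 2251 in the compared groups alone and 608 to 1025 with a library left out. Those in PAP TRAP against synaptoneurosome input numbered 606, 1253 by DESeq2 and 292 to 521 with a library left out. Length-corrected offsets turned the sign of Neat1 (0.63 in cortex TRAP against cortex input, -2.48 in PAP TRAP against cortex TRAP, -0.48 in the difference of enrichments), Kcnq1ot1 (-0.50 in synaptoneurosome input against cortex input), and Meg3 (-1.17) and Snhg11 (-0.57) in PAP TRAP against cortex TRAP. Nuclear totals without TMM turned Kcnq1ot1 (-0.31 in synaptoneurosome input against cortex input), Neat1 (-0.15) and Snhg11 (-0.13, both in PAP TRAP against cortex TRAP). Leaving out a library gave -1.62 to 0.60 for Kcnq1ot1 in synaptoneurosome input against cortex input, -1.003 to 1.22 for Kcnq1ot1 and -0.25 to 4.01 for Neat1 in PAP TRAP against synaptoneurosome input, and -0.69 to 0.10 for Malat1 and -0.29 to 1.34 for Neat1 in PAP TRAP against cortex TRAP. The cause was not tested. Nuclear totals without TMM also moved the median of all genes, for example from -0.14 to -0.45 in synaptoneurosome input against cortex input, where the share of lower calls went from 22.2% to 60.4%. That share went from 33.5% to 55.6% in PAP TRAP against synaptoneurosome input (20.9% without mitochondrial genes) and from 43.0% to 54.6% in PAP TRAP against cortex TRAP. Same-numbered libraries were weakly alike: their deviations correlated at 0.0124 to 0.0714, those of other pairs at -0.0652 to 0.0296. In 22 of 24 cases a library was closest to its own number. All correlations lay under a limit of 0.1, and the main fit has no replicate block, so a weak pairing was not modelled there. The fit with the replicate number as a block turned Kcnq1ot1 to -0.73 in synaptoneurosome input against cortex input and Neat1 to -0.10 in PAP TRAP against cortex TRAP. The fit of the compared groups alone gave no value for Meg3 in PAP TRAP against synaptoneurosome input and against cortex TRAP, where Meg3 did not pass its filter. Depth limits Meg3, Rian, Mirg and, in the synaptoneurosome inputs, Neat1 and Miat.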
